A study of Drosophila melanogaster with 9 samples.

Results

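Nuclear ribosomal RNA (rRNA) genes and pseudogenes were examined in RNA-seq of whole *Drosophila melanogaster* embryos. The members were all genes whose name in the deposited tables contains rRNA and does not start with the mitochondrial prefix, 12 of 14909 genes: 8 28S pseudogenes, 1 18S pseudogene and 3 pre-rRNA genes. Among the pre-rRNA genes, pre-rRNA-Psi:CR45856 has the deposited biotype pseudogene. The 12 members were chosen by their values in these libraries, because several 28S pseudogenes were higher in the *KahΔATG* mutant and lower in the *KahΔZnF* mutant. Their levels and fold changes are therefore given as a description, with no p-value for any member. Counts of members called by the fits over all genes are likewise descriptive, since the choice of members helped to fix them. Embryos were collected 5 to 16 h after egg laying from *w1118*, the control strain, and from mutants of *Kah* (*Kahuli*), which encodes a zinc-finger transcription factor of the Snail superfamily. *KahΔATG* lacks most of exon 2 with the start codon, and *KahΔZnF* carries an in-frame deletion of the zinc fingers. Both alleles were made by CRISPR/Cas9 in the germ line. Each genotype had 3 libraries, and the study asked which genes depend on Kah.

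Ribosomal RNA forms the core of the ribosome. RNA polymerase I transcribes tandem rDNA repeats into a pre-rRNA, which is cleaved into 18S rRNA of the small subunit and 5.8S, 2S and 28S rRNA of the large subunit, 2S being separate in flies. 5S rRNA is made elsewhere by RNA polymerase III. In *Drosophila* the rDNA arrays lie in the heterochromatin of the X and Y chromosomes, and many 28S copies there are broken by the R1 and R2 retrotransposons. Mature rRNA is by far the most abundant RNA of a cell and carries no long poly(A) tail, so most mRNA protocols remove it. How the libraries were made (poly(A) selection or rRNA depletion) is not given in the sources used here.

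By the coordinates in the tables (BDGP6 assembly), 7 members lay on the X chromosome between 23205822 and 23283731, a stretch of 77.9 kb, and 5 lay on the separate rDNA scaffold. On X, 28SrRNA-Psi:CR45859 ran from 23214452 to 23217140 and 18SrRNA-Psi:CR41602 from 23211192 to 23213166, both on the plus strand. 28SrRNA-Psi:CR41609, from 23261772 to 23262666, and 28SrRNA-Psi:CR45860, from 23270802 to 23271158, were on the minus strand. On the rDNA scaffold, 28SrRNA-Psi:CR40596 ran from 16936 to 22940 and 28SrRNA-Psi:CR45851 from 35941 to 38740, both on the plus strand. These last pseudogenes have 2 exons each, and every other member has 1. The 3 pre-rRNA genes overlap annotated 18S, 28S, 5.8S or 2S genes or pseudogenes inside them on the same strand. Exons of the other members overlap no exon of another gene, and introns were not compared. Ensembl release 115 annotates 136 nuclear rRNA genes in the same assembly. The other 124, among them the 5S, 5.8S and 2S genes and the full-length 18S and 28S genes, have no row in the tables used here and were not analysed here. Copies of rDNA are nearly identical in sequence, and how the authors' counting treated reads that match several copies is not given in the sources used here, so the split of reads among members is uncertain. The members are thus not independent measurements.

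Between 17990440 and 20036805 reads fell on genes in each of the 9 libraries. The mitochondrial share was 8.67% to 16.6%, with 3 libraries under 12% (*KahΔZnF* replicate 1 and *w1118* replicates 2 and 3) and 6 above 15%. *Kah* itself had a normalised read count of 1630 ± 66.1 in *KahΔATG* and 368 ± 11.8 in *w1118* (SD, n = 3), against 743 ± 51.9 in *KahΔZnF* and 371 ± 7.74 in *w1118* where that mutant was tabulated. A count over the whole gene does not show the deleted bases. The labels call the libraries biological replicates. As worded, the study's methods give 1 embryo collection for the 3 libraries of a genotype, while the labels' wording leaves this unclear. With 1 collection each, collection and genotype cannot be told apart, and the errors measure only the spread between these libraries.

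The members together took few reads, and their share differed most in 1 library. In *w1118* they held 951, 1297 and 735 reads in replicates 1, 2 and 3, which is 47.5, 68.8 and 39.5 RPM (reads for every 1000000 gene reads of the library). In *KahΔATG* they held 965, 2976 and 1058 reads, or 52.3, 165 and 54.6 RPM. In *KahΔZnF* they held 479, 385 and 503 reads, or 24.1, 20.3 and 25.9 RPM. All 3 *KahΔZnF* libraries lay below all 6 others, *KahΔATG* replicates 1 and 3 lay inside the range of *w1118*, and *KahΔATG* replicate 2 stood far above every other library. The 95% Wilson interval for that library was 160 to 171 RPM, and the interval of *w1118* replicate 2, the next highest, was 65.2 to 72.7 RPM. Such intervals cover counting error only.

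**Figure D1:**
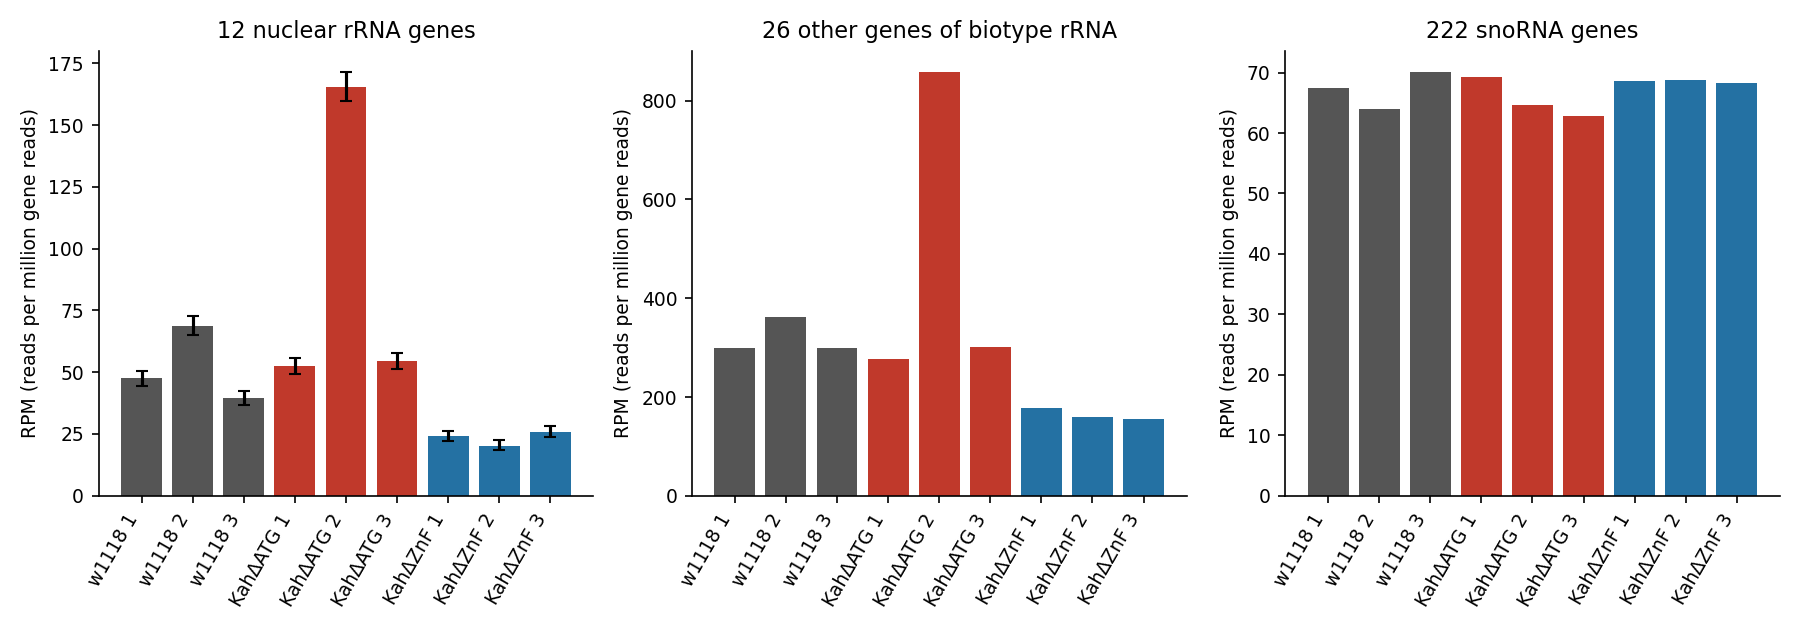
RPM in each of the 9 libraries for the 12 nuclear rRNA genes (bars with 95% Wilson intervals), for 26 other genes of biotype rRNA and for 222 snoRNA genes. *KahΔATG* replicate 2 is highest in the first and second panels, at 165 and 858 RPM, while the snoRNA share runs from 62.8 to 70.1 RPM over all libraries.

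By rRNA type, the 28S pseudogenes carried 87.1% to 95.4% of the member reads of a library. Their mean share was 47.9 ± 15.9 RPM in *w1118*, 85.2 ± 62.9 in *KahΔATG* and 21.4 ± 3.18 in *KahΔZnF* (SD, n = 3 each). The 18S pseudogene had 1.56 ± 0.375, 3.02 ± 1.76 and 0.807 ± 0.172 RPM in the same order. The pre-rRNA genes had 2.46 ± 0.741, 2.54 ± 0.700 and 1.15 ± 0.353 RPM. The pre-rRNA genes thus had nearly the same mean in *KahΔATG* as in *w1118*, and all types were lowest in *KahΔZnF*. The pre-rRNA genes share bases with annotated genes that have no row. How reads on shared bases were counted is not given in the sources used here, so the types may not be like measures.

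28SrRNA-Psi:CR45860, a fragment of 357 bases, held the most reads of any member. It had 434, 487 and 378 reads in *w1118*, 409, 1181 and 427 in *KahΔATG*, and 246, 219 and 252 in *KahΔZnF*. The *KahΔZnF* libraries were lowest and close together, and *KahΔATG* replicate 2 stood alone above the rest. It made up 43.5% of the member reads in *w1118*, 40.3% in *KahΔATG* and 52.5% in *KahΔZnF*. Per kilobase of gene length, with all 9 libraries scaled together, its mean level in *w1118* was 1140 normalised reads, against 83.6 for 28SrRNA-Psi:CR45851, 70.4 for 28SrRNA-Psi:CR40596, 46.0 for 28SrRNA-Psi:CR41609 and between 0.429 and 26.9 for the other 8 members. Because copies of rDNA are nearly identical, this order may depend on how shared reads were assigned, which was not tested.

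28SrRNA-Psi:CR45851 had 192, 195 and 76 reads in *w1118*, 114, 662 and 212 in *KahΔATG*, and 68, 39 and 49 in *KahΔZnF*. *KahΔATG* replicate 2 again stood far above the rest, and all *KahΔZnF* libraries lay below all *w1118* libraries, though replicate 3 of *w1118* came near them. 28SrRNA-Psi:CR40596 had 124, 422 and 78 reads in *w1118*, 249, 545 and 87 in *KahΔATG*, and 60, 34 and 103 in *KahΔZnF*. This pseudogene was uneven in every genotype: replicate 2 of *w1118* was also high, and its groups overlapped.

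28SrRNA-Psi:CR45859 departed from the others. It had 31, 21 and 9 reads in *w1118* and 19, 17 and 23 in *KahΔZnF*, but 28, 196 and 158 in *KahΔATG*. It was high in *KahΔATG* replicates 2 and 3, while replicate 1 was at the level of *w1118*, and it was not lower in *KahΔZnF*. 28SrRNA-Psi:CR41609 was even in *w1118*, with 41, 48 and 42 reads. It had 35, 106 and 39 reads in *KahΔATG* and 25, 20 and 26 in *KahΔZnF*, so that only *KahΔATG* replicate 2 lay above the *w1118* range and all *KahΔZnF* libraries lay below it.

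18SrRNA-Psi:CR41602, the only 18S member, had 23, 31 and 35 reads in *w1118*, 36, 91 and 40 in *KahΔATG*, and 15, 19 and 13 in *KahΔZnF*. The 3 genotypes did not overlap in these reads, although *KahΔATG* replicate 1 exceeded *w1118* replicate 3 by a margin smaller than counting error. The remaining 6 members stayed under a mean of 50 reads in every genotype. Among them 28SrRNA-Psi:CR40741 had 37, 38 and 29 reads in *w1118*, 18, 81 and 34 in *KahΔATG* and 16, 7 and 5 in *KahΔZnF*. 28SrRNA-Psi:CR45848 followed the same course, from 20 to 28 reads in *w1118*, 17 to 64 in *KahΔATG* and 3 to 15 in *KahΔZnF*. 28SrRNA-Psi:CR45855 was near the detection floor, with 0 to 3 reads in any library, and no fold change was computed for it.

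The pre-rRNA genes have lengths of 5725 to 8118 bases and do not all hold a 28S part of the same length. The 28S part annotated inside them has 3970 bases in pre-rRNA:CR45847 and 2715 in pre-rRNA:CR45845. In pre-rRNA-Psi:CR45856 it is a 28S pseudogene of 2004 bases. pre-rRNA:CR45845 had 17, 13 and 21 reads in *w1118*, 19, 25 and 13 in *KahΔATG* and 5, 9 and 4 in *KahΔZnF*. pre-rRNA:CR45847 had 23, 13 and 24 reads in *w1118*, 22, 14 and 15 in *KahΔATG* and 5, 7 and 7 in *KahΔZnF*. For both genes *KahΔATG* overlapped *w1118* and *KahΔZnF* lay below it. pre-rRNA-Psi:CR45856 overlapped in all genotypes, with 8, 7 and 15 reads in *w1118*, 18, 8 and 7 in *KahΔATG* and 5, 11 and 14 in *KahΔZnF*.

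**Figure D2:**
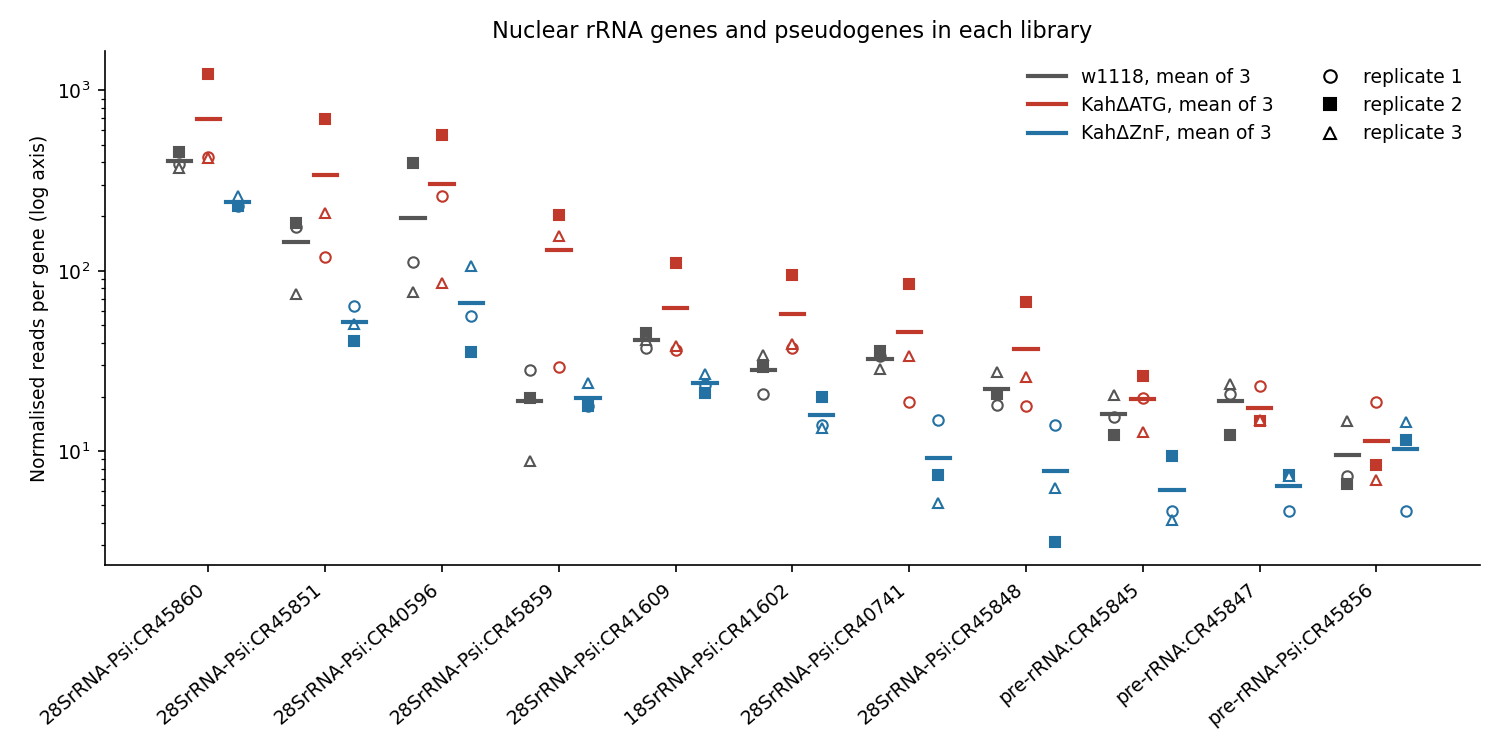
Normalised reads (log axis, all 9 libraries scaled together) of 11 nuclear rRNA genes and pseudogenes in *w1118*, *KahΔATG* and *KahΔZnF*, with replicate 1 as open circles, replicate 2 as filled squares, replicate 3 as open triangles and horizontal lines for the means of 3 libraries. The filled square of *KahΔATG* is the highest point of every 28S and 18S pseudogene, and this does not hold for pre-rRNA:CR45847 or pre-rRNA-Psi:CR45856. 28SrRNA-Psi:CR45855, with 0 to 3 reads, is not drawn.

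Within *KahΔATG*, replicate 2 was the highest library for 9 of the 11 members with at least 30 reads over that genotype. The ratio of replicate 2 to the mean of replicates 1 and 3 had a median of 2.91 over these members and reached 4.21 for 28SrRNA-Psi:CR45851. It was 2 or more for 8 of the 11, that is for all 7 28S pseudogenes counted and for 18SrRNA-Psi:CR41602. For the pre-rRNA genes it was 1.60 for pre-rRNA:CR45845, 0.774 for pre-rRNA:CR45847 and 0.650 for pre-rRNA-Psi:CR45856. Over all 10800 genes with as many reads the median ratio was 0.997 and the 99th percentile was 1.73, and 66 genes (0.611%) reached 2. For replicate 2 of *KahΔZnF* 0 of 7 members with as many reads reached 2. For replicate 2 of *w1118* only 28SrRNA-Psi:CR40596 of 11 did, at 4.21. Replicate numbers do not match libraries across genotypes, and other replicates also stood out in single members. 28SrRNA-Psi:CR40596 had 2.33 for *KahΔZnF* replicate 3. For pre-rRNA-Psi:CR45856 the ratio was 2.12 for *w1118* replicate 3 and 2.46 for *KahΔATG* replicate 1. The coefficient of variation over 3 libraries had a median of 69.7% for 10 members in *KahΔATG*, against 7.02% for all genes, and of 21.9% for 7 members in *KahΔZnF* and 24.3% for 10 in *w1118*, against 8.89% and 9.81%. The sets were not matched by level, and counting error widens this measure for members with few reads.

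The excess in *KahΔATG* replicate 2 extended to other genes of rRNA type. The tables hold 26 further genes with the biotype rRNA but other names, 25 of them on unplaced scaffolds, and the tables do not say which rRNA each encodes. They held 6005, 6842 and 5564 reads in *w1118*, 5095, 15440 and 5831 in *KahΔATG*, and 3541, 3013 and 3019 in *KahΔZnF*. CR41535 alone carried 69.8% of these reads in *w1118*. Of the 20 genes with the highest replicate 2 ratio in *KahΔATG*, 13 were members or other rRNA genes. The protein-coding gene Prosalpha1 ranked first, at 4.22, and had 2.79 in *w1118*. The rest were the protein-coding genes Sdic2, CG14502 and CG5079, the long non-coding RNA genes CR45919 and CR44756, and 7SLRNA:CR42652, at 2.89. 7SLRNA:CR42652 encodes the signal recognition particle RNA. Not every rRNA gene took part: CR40679 had 294, 247 and 348 reads in *KahΔATG* against 468, 359 and 435 in *w1118*. CR41620 had a smaller excess, with a ratio of 1.32. Other short non-coding classes differed less between the *KahΔATG* libraries. The low tRNA and miRNA precursor shares were also highest in replicate 2, at 3.04, 4.34 and 3.09 RPM for tRNAs and 15.8, 19.8 and 15.9 RPM for precursors in replicates 1, 2 and 3. Small nucleolar RNAs, which guide rRNA modification, had 69.2, 64.7 and 62.8 RPM in *KahΔATG*, and spliceosomal snRNAs had 24.5, 24.6 and 26.6. The mitochondrial share of replicate 2, 15.3%, lay close to the 16.5% and 15.9% of replicates 1 and 3.

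**Figure D3:**
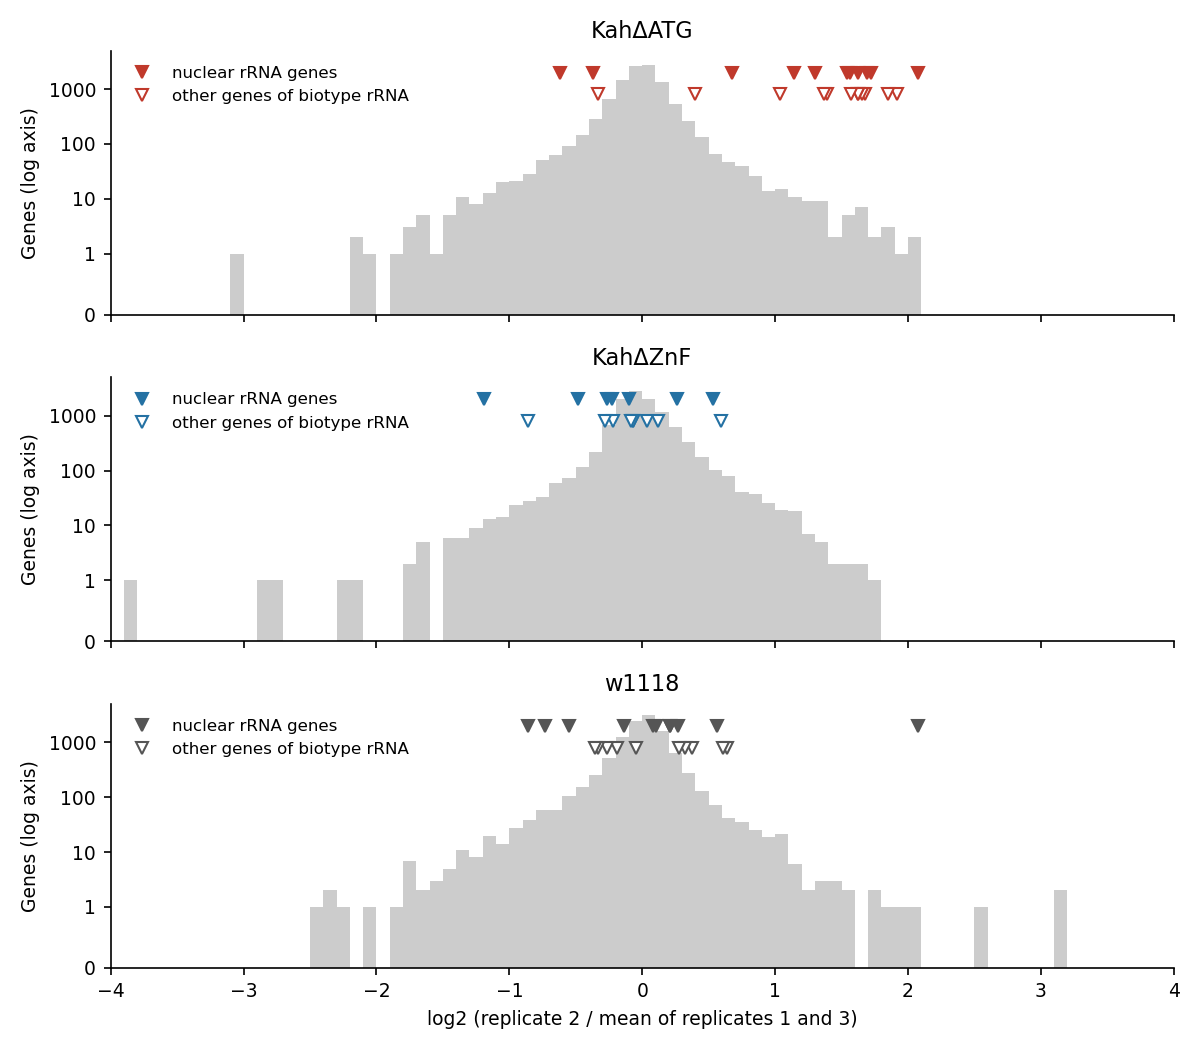
Histograms (log axis) of the log2 ratio of replicate 2 to the mean of replicates 1 and 3 over all genes with at least 30 reads in a genotype, with triangles for the nuclear rRNA genes (filled) and other genes of biotype rRNA (open). In *KahΔATG* 8 filled and 10 open triangles lie at a ratio of 2 or more, and in *KahΔZnF* none do.

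Each mutant was set against *w1118* with limma on log2(value + 1). Calls required an adjusted p no greater than 0.05 together with an absolute log2 fold change no smaller than 0.59. Both comparisons use the same *w1118* libraries. In *KahΔATG* 10 of the 12 members passed the filter on low values, with a median log2 fold change of 0.55, against -0.02 over all genes tested. Of these 10, 9 had a value above 0. Only 28SrRNA-Psi:CR45859 was called higher, with a log2 fold change of 2.46 ± 0.68 (SE), and 14.7% of all genes tested were called higher. Its normalised values were 29.4, 211 and 159 in *KahΔATG* and 29.0, 19.9 and 8.86 in *w1118*, so that the groups were separated only narrowly. The log2 fold change was 1.93 without *KahΔATG* replicate 2 and 2.13 without replicate 3, and it was called in neither case. 0 members were called lower by limma, edgeR or DESeq2, and 0 had a log2 fold change below 0 at an unadjusted p under 0.05. The background was 10.6%. The libraries lay all above *w1118* for 2 members, where the share of all genes was 29.6%, and all below it for 0, where it was 28.6%.

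The other values in *KahΔATG* were 0.95 ± 0.58 for 28SrRNA-Psi:CR45851, 0.90 ± 0.36 for 18SrRNA-Psi:CR41602, 0.63 ± 0.71 for 28SrRNA-Psi:CR40596 and 0.58 ± 0.36 for 28SrRNA-Psi:CR45860. Those of 28SrRNA-Psi:CR45848, 28SrRNA-Psi:CR41609, pre-rRNA:CR45845 and 28SrRNA-Psi:CR40741 ran from 0.51 down to 0.22, and that of pre-rRNA:CR45847 was -0.08. These depended on replicate 2. Without it the median over the 10 members was 0.02, and 4 of them had values below 0, namely -0.36 for 28SrRNA-Psi:CR40741, -0.13 for 28SrRNA-Psi:CR41609, -0.03 for 28SrRNA-Psi:CR45848 and -0.01 for 28SrRNA-Psi:CR40596. 28SrRNA-Psi:CR45860 then stood at 0.06 and 28SrRNA-Psi:CR45851 at 0.24. Without replicate 1 or replicate 3 the median was 0.78 or 0.75.

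In *KahΔZnF* 11 of the 12 members passed the filter. Of these 11, 8 were called lower and 0 higher, while 25.5% of all genes tested were called lower and 23.8% higher. pre-rRNA:CR45845 and pre-rRNA:CR45847 passed only through their *w1118* libraries, so that the filter itself favoured a lower value for them. Without these, 6 of 9 members were called lower. edgeR and DESeq2 also called 0 members higher, and 0 had a value above 0 at an unadjusted p under 0.05. The median log2 fold change was -1.32 over the 11 members and -0.78 over the 9, against 0.00 over all genes tested. For 8 members all *KahΔZnF* libraries lay below all *w1118* libraries (37.1% of all genes), and for 0 all lay above (37.4%). Among the 9, the lowest values on this scale were -1.84 ± 0.37 (SE) for 28SrRNA-Psi:CR40741, -1.57 ± 0.46 for 28SrRNA-Psi:CR45848 and -1.37 ± 0.32 for 28SrRNA-Psi:CR45851, followed by -1.32 ± 0.54 for 28SrRNA-Psi:CR40596, which was not called. pre-rRNA:CR45847 and pre-rRNA:CR45845 stood at -1.39 ± 0.37 and -1.32 ± 0.40. The best measured member, 28SrRNA-Psi:CR45860, had a normalised read count of 246 ± 19.0 in *KahΔZnF* and 416 ± 47.4 in *w1118* (SD, n = 3) and a log2 fold change of -0.75 ± 0.12. 18SrRNA-Psi:CR41602 and 28SrRNA-Psi:CR41609 had nearly the same value, -0.78 ± 0.29 and -0.77 ± 0.22. 28SrRNA-Psi:CR45859 (0.19 ± 0.40) and pre-rRNA-Psi:CR45856 (0.06 ± 0.48) were not lower. Without *w1118* replicate 2 the number called lower was 4, but pre-rRNA:CR45845 and pre-rRNA:CR45847 then failed the filter and were not tested.

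With any of the 6 libraries left out, the *KahΔZnF* value of 28SrRNA-Psi:CR45860 stayed between -0.82 and -0.66 and that of 28SrRNA-Psi:CR40741 between -2.22 and -1.54. *KahΔZnF* replicate 1, whose mitochondrial share was 8.67%, had 479 member reads, between the 385 and 503 of the other libraries.

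**Figure D4:**
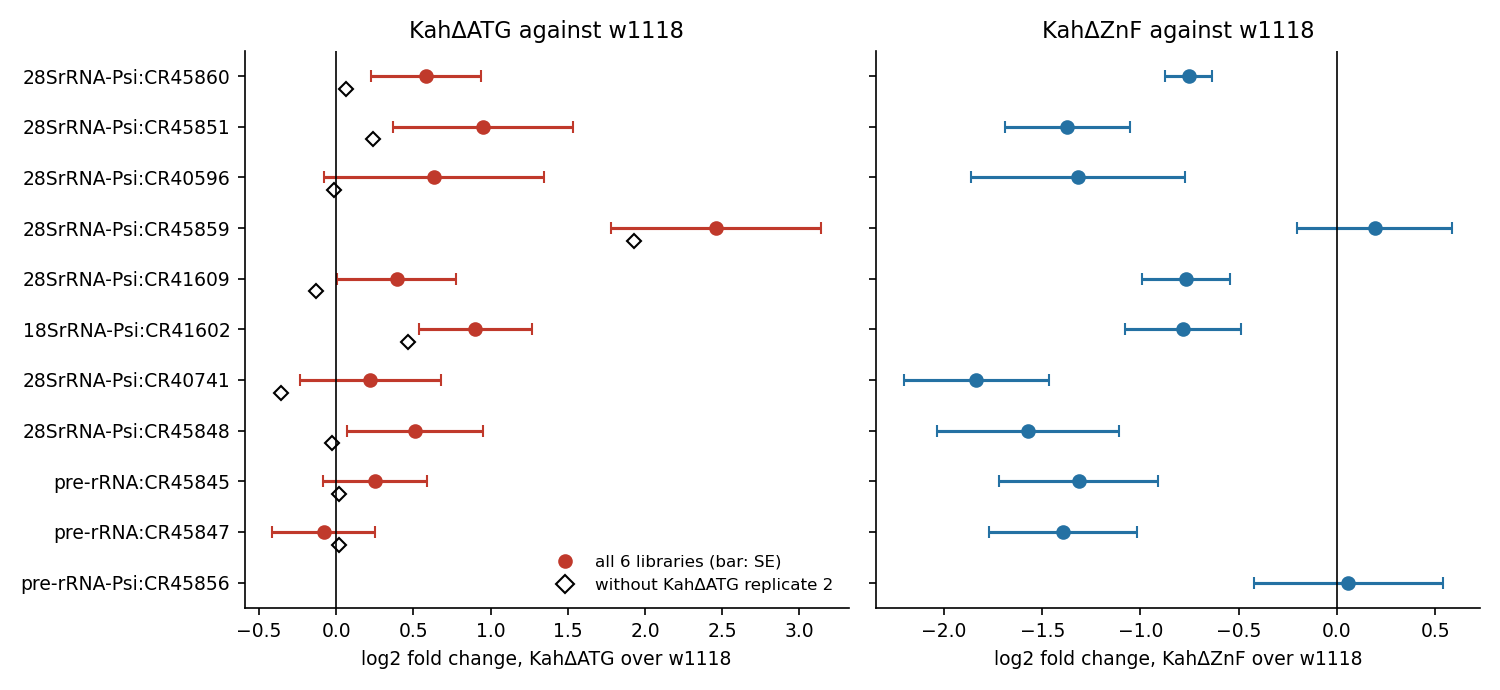
Log2 fold changes over *w1118*, on the log2(value + 1) scale, of the members tested in *KahΔATG* (left) and *KahΔZnF* (right), with bars for the SE and open diamonds for the value without *KahΔATG* replicate 2. On the left the diamond of 28SrRNA-Psi:CR45859 lies at 1.93 and the others between -0.36 and 0.47, and on the right 9 of 11 points lie below 0.

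The mutants were also set against each other on reads scaled together over both tables. Of 11 members tested, 10 were called lower in *KahΔZnF* than in *KahΔATG* and 0 higher, where 12.9% and 5.68% of all genes tested were called. pre-rRNA:CR45845 and pre-rRNA:CR45847 passed the filter only through *KahΔATG*, and without them 8 of 9 were called lower. 0 were called higher by edgeR or DESeq2, or had a value above 0 at an unadjusted p under 0.05. The libraries did not overlap for 9 members, all lower in *KahΔZnF* (27.7% of all genes), and for 0 in the other direction (32.7%). The median log2 fold change was -1.68 over the 11 members and -1.95 over the 9, and the values ran from -2.32 ± 0.46 (SE) for 28SrRNA-Psi:CR45851 to -0.14 ± 0.50 for pre-rRNA-Psi:CR45856. Without *KahΔATG* replicate 2 the number called lower was 7, but pre-rRNA:CR45845 and pre-rRNA:CR45847 then failed the filter and were not tested. 28SrRNA-Psi:CR45860 moved in that case from -1.33 to -0.82 and 28SrRNA-Psi:CR45851 from -2.32 to -1.61.

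The 26 other genes of biotype rRNA were mostly too low to be tested. In *KahΔATG* 0 of 11 tested were called by limma, edgeR or DESeq2 (0 higher and 1 lower at an unadjusted p under 0.05), and in *KahΔZnF* 9 of 10 tested were called lower, with a median log2 fold change of -0.87 and the background of 25.5% given above. CR40712 passed the filter only through *w1118*, and without it 8 of 9 were called lower. CR41535 had 4147, 4940 and 3773 reads in *w1118*, 3490, 11788 and 4100 in *KahΔATG* and 2553, 2120 and 2191 in *KahΔZnF*. CR40679 did not share the excess of *KahΔATG* replicate 2, and CR41620 shared it to a smaller degree. Both were also lower in *KahΔZnF*, at -1.18 ± 0.19 and -1.18 ± 0.16 (SE).

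The mitochondrial rRNA genes, which are transcribed from the mitochondrial genome, did not follow the nuclear ones. Normalised counts of mt:srRNA, the small-subunit RNA, were 2419, 2600 and 2317 in *KahΔATG* against 1661, 996 and 1029 in *w1118*, which is a difference of 1.03 ± 0.17 on the log2 scale (SE, limma adjusted p = 0.000939). In *KahΔZnF* they were 1178, 2072 and 1832, a difference of 0.45 ± 0.22 (limma adjusted p = 0.0890). mt:lrRNA, the large-subunit RNA, had differences of 0.57 ± 0.23 (limma adjusted p = 0.0675) and 0.33 ± 0.33 (limma adjusted p = 0.403). The 3 *KahΔATG* libraries differed little for either gene, and both were low in the 3 libraries with a small mitochondrial share. mt:lrRNA had mean normalised counts of 2230130 in *KahΔATG* and 1556770 in *w1118* and is itself a large part of that share. For mt:lrRNA the match with the share was therefore fixed in advance.

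Genes that make and process rRNA were measured from lists of 60 genes in 6 groups, all of which passed the filter. In *KahΔATG* 15 of 60 were called higher and 0 lower by limma, and the median log2 fold change was 0.17. In *KahΔZnF* 27 were called higher and 0 lower, with a median of 0.56. Against these stand the 14.7% and 23.8% of all genes called higher and medians of -0.02 and 0.00. Both counts rest on the same *w1118* libraries. edgeR and DESeq2 gave the same counts of 15 and 27 higher and 0 lower. At an unadjusted p under 0.05, 3 list genes were lower in *KahΔATG* and 0 in *KahΔZnF*.

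Factors of rRNA processing and ribosome assembly led, with 9 of 22 higher in *KahΔATG* and 16 of 22 in *KahΔZnF*. Mat89Ba, a nucleolar protein, had normalised counts of 1647, 1912 and 1596 in *KahΔATG*, a mean of 724 ± 69.3 in *w1118* (SD, n = 3) and 3133, 2392 and 2694 in *KahΔZnF*. Its log2 fold changes were 1.25 ± 0.10 (SE, limma adjusted p = 9.5e-06) and 1.90 ± 0.11 (2.63e-07). RIOK1, a kinase of small-subunit maturation, rose by 1.13 ± 0.08 (5.17e-06) and 1.37 ± 0.10 (9.44e-07) on the log2 scale. mbm, a nucleolar protein of neuroblasts, rose by 0.97 ± 0.07 (6.84e-06) and 1.37 ± 0.08 (1.83e-07).

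Of 10 genes of RNA polymerase I transcription, 2 were higher in each mutant, TAF1B and TAF1C-like, subunits of the promoter selectivity factor. TAF1B rose by 1.08 ± 0.11 (SE, limma adjusted p = 6.15e-05) in *KahΔATG* and 1.66 ± 0.09 (1.31e-07) in *KahΔZnF*. The polymerase subunits RpI1 and RpI135 were not called, with log2 fold changes of -0.15 and -0.06 in *KahΔATG* and 0.10 and 0.19 in *KahΔZnF*. Of the RNA exosome, which trims pre-rRNA and degrades faulty rRNA, 3 of 11 genes were higher in *KahΔATG* and 6 of 11 in *KahΔZnF*. The largest change was that of Rrp6, at 0.84 and 1.25. Among 9 genes of snoRNP proteins, 1 and 2 were higher, Nopp140, a snoRNP chaperone, in both and Fib, the methyltransferase fibrillarin, in *KahΔZnF*. Of 6 genes of RNA polymerase III transcription 0 and 1 were higher (unadjusted 2 and 4), the latter being the repressor Maf1. RpL5 and RpL11, the ribosomal proteins that bind 5S rRNA, were not called. Over all genes tested, 14.7% were called higher in *KahΔATG* and 23.8% in *KahΔZnF*. The counts of the RNA polymerase I, RNA polymerase III and snoRNP groups lay near or below these shares and give no result about those groups. Set against each other, 7 of 60 list genes were called higher in *KahΔZnF* than in *KahΔATG* by limma, 2 by edgeR and 4 by DESeq2. None were lower by any of these (0 at an unadjusted p under 0.05). Over all genes tested, limma called 5.68% higher and 12.9% lower in this comparison, so the count depends on the tool and gives no clear result about the lists.

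**Figure D5:**
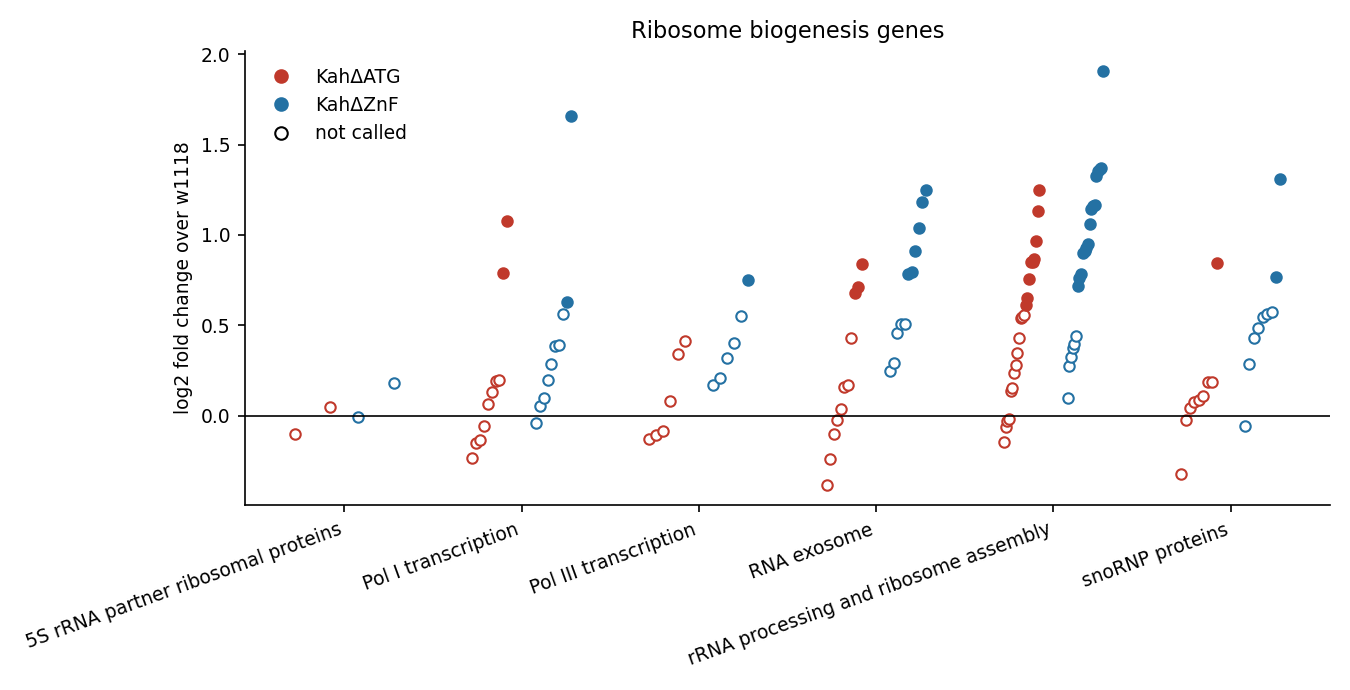
Log2 fold changes over *w1118* of 60 ribosome biogenesis genes in 6 groups, on the log2(value + 1) scale, for *KahΔATG* (red) and *KahΔZnF* (blue), filled where called. Filled points are all above 0, with 15 in *KahΔATG* and 27 in *KahΔZnF*.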

How the data were processed

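RNA-seq reads of 9 embryo libraries were processed by the authors with HISAT2 2.0.5, featureCounts 1.5.0-p3 and DESeq2 1.20.0, per the submitters' processing notes. The deposited signal of a gene is its reads divided by a size factor of the library, in 1 table for each mutant with *w1118*. The deposited tables also hold the authors' fold changes and p-values, which were not used. Whole reads were recovered for 100% of values (within 0.001 of a whole number), and the *w1118* reads of all 14306 shared genes were equal between tables. At 17990440 to 20036805 reads per library, members under 50 reads carry a large counting error. The reads of replicate pairs differed beyond sampling noise (reduced chi-square 5.19 to 67.0), so each library was kept.

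Each mutant was compared with *w1118* within its table on log2(value + 1) with limma 3.58.1 in R 4.3.3 (trended variance). Genes had to reach 10 in 3 of 6 libraries, with Benjamini-Hochberg adjustment over all of them. The mutants were compared on recovered reads scaled by the median of ratios. Alternatives were edgeR 4.0.16, DESeq2 1.42.0, no filter, a pseudocount of 5, scaling without mitochondrial and rRNA genes, a replicate block and each library left out. Counts without genes that passed the filter through 1 group only were added after the values were seen. The tests were tried on simulated data. Coordinates equal those of Ensembl release 115 for 98.5% of shared genes. Members were described with their values in each library where a genotype had a mean of at least 50 reads, other members by counts, ranges or, for some chosen after their values were seen, single values. Of the list genes, the 4 with the largest rises called in both mutants were named by rule, and 0 were called lower in both. The other list genes and the other rRNA genes were named after their values were seen. Members and lists were chosen with earlier results of these data known. Figures were made in Python 3.11.15 (matplotlib 3.10.9).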

Additional observations from a re-analysis of the deposited data

How the results depend on the processing

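The number of members called higher in *KahΔATG* was 1 by limma and edgeR, 2 by DESeq2 and 4 with the replicate number as a block, and ranged from 0 to 3 with a library left out (0 without *KahΔATG* replicate 2 or 3, and 3 without replicate 1). The causes were not tested. The number called lower in *KahΔZnF*, 8, ranged from 4 to 8 with a library left out (4 without *w1118* replicate 2) and from 6 (added after the values were seen, without the members that passed the filter through 1 group) to 9 in the other alternatives. The number lower in *KahΔZnF* against *KahΔATG*, 10, ranged from 7 to 10 with a library left out, was 8 without those members and stayed at 10 otherwise. In both comparisons pre-rRNA:CR45845 and pre-rRNA:CR45847 failed the filter once a library of the higher group (*w1118* or *KahΔATG*) was left out. Part of the drop in these counts thus comes from genes not tested. Without mitochondrial genes in the library total, the mean share of the 28S pseudogenes in *KahΔZnF* was 24.9 RPM in place of 21.4. Of 366 alternative fold changes of members, 0 that had been called changed sign, and 365 moved by less than 1 SD (pooled over the libraries of both groups). This SD includes *KahΔATG* replicate 2, so it is no sign that the *KahΔATG* values hold without that library. The exception was pre-rRNA:CR45847 in *KahΔZnF* against *KahΔATG*, at -0.96 with a pseudocount of 5. Counts of all genes called (2780, 5400 and 2019) and of list genes (15 and 27) stayed within 1.5 times. Replicate numbers were not used to pair the libraries in the main fits. Correlations of same-numbered deviations were 0.25, 0.09 and 0.12 in the *KahΔATG* comparison, where those of other pairs ran from -0.22 to 0.11. In the *KahΔZnF* comparison they were -0.26, -0.10 and -0.10, where those of other pairs ran from -0.13 to 0.20. Pairing in the *KahΔATG* comparison is therefore not excluded. The block gave 2840, 5334 and 1985 genes. It raised the members called higher in *KahΔATG* from 1 to 4 and changed no other count by over 1.5 times.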
